A study of Mus musculus with 3 samples.

Results

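The genes described here were 8 genes of plasma cell differentiation: Prdm1, Irf4, Xbp1, Sdc1, Igj, Mzb1, Derl3 and Fkbp11. They were taken by name from a mouse expression array whose non-control probes carried 34797 distinct names, some of which are transcript identifiers or lincRNA regions rather than gene symbols. All 8 genes were found, each with 1 probe. For 7 of them the array used the same name, and Mzb1 stood under its older name 2010001M09Rik and was matched through its RefSeq accession. Igj is the older name of Jchain. The rule used the names alone, though earlier results of these data were known when the genes were chosen.

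The samples were RNA of islet-bearing spleen from 3 times after transplantation, each hybridized to 1 array with 1 dye. All came from C57BL/6J recipient mice, as the labels name the strain (males, C57BL/6 in the methods), made diabetic with streptozotocin (STZ), which destroys beta cells. Recipients were given syngeneic islets, 25 into the spleen and 100 beneath the kidney capsule (SP25+KC100). Sample 1 was taken at day 0, right after transplantation, and Sample 2 at day 2. Sample 3 was taken at day 139, after the graft-bearing kidney had been removed at day 100. The labels give no age, and the methods give 8 to 16 weeks for all mice of the study without an age per sample. That range cannot be the age of Sample 3 at harvest, since 139 days after transplantation is by itself longer than 16 weeks. Neither source says whether an array held the RNA of 1 mouse or of a pool. Time since transplantation, aging over that time and the loss of 1 kidney cannot be told apart in Sample 3. No spleen without islets and no spleen of a mouse without diabetes was measured here.

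Plasma cells are the antibody-secreting end stage of the B cell lineage, and the spleen is one of the organs in which they form. Irf4 and Prdm1 (Blimp-1) are transcription factors that turn an activated B cell into a plasma cell and silence the B cell program. Xbp1, a transcription factor of the unfolded protein response, enlarges the endoplasmic reticulum (ER) for secretion. The cell surface proteoglycan Sdc1 (CD138) is the marker by which plasma cells are usually sorted. J chain (Igj) joins IgM and IgA into polymers, and Mzb1, Derl3 and Fkbp11 are ER proteins of antibody folding and disposal. None of the 8 genes belongs to plasma cells alone. Irf4 and Prdm1 are also used by activated T cells, Xbp1, Derl3 and Fkbp11 by other secretory cells such as pancreatic acinar cells, and Sdc1 by epithelia.

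Promoter sequence around the start of transcription was searched for short motifs. The 170 bases before the annotated start (RefSeq, GRCm38.p6, written on the gene's own strand) are given for 3 genes. Derl3 was the only gene here with a match to the ER stress response element (ERSE). Igj, like Xbp1 and Irf4, had no match to any motif searched. Xbp1 differed from the other genes in the comparison of Sample 3 with Sample 1. Capitals mark the letters of CCACGT and of the ERSE, which lies on the opposite strand and so reads CGTGG and, 9 bases on, ATTGG.
Derl3, chr10:75893228-75893397, + strand: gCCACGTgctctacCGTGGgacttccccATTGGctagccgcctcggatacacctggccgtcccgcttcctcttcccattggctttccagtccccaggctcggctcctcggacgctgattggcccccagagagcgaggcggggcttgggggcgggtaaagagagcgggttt
Igj, chr5:88527898-88528067, - strand: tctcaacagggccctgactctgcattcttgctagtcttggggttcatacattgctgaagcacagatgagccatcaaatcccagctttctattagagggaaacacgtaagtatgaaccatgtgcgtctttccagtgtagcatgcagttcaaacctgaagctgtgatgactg
Xbp1, chr11:5520471-5520640, + strand: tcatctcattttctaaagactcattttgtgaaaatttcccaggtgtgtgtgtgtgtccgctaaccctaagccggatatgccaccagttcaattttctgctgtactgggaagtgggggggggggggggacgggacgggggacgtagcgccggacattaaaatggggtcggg

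Motifs were searched on both strands of the 250 bases before and 50 bases after each start, and 7 of the 8 genes had such a window in the table used. Fkbp11 had 2 starts and so 2 windows, and its matches given below lay in only 1 of them. The ERSE, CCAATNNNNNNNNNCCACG, is known as an element of ER chaperone genes and was found in 0.119% of 32851 promoters. Among the 7 genes it was found in Derl3, between 156 and 138 bases before the start (-156 to -138). The core CCACGT was in 8.31% of promoters and was found in Derl3 (-169 to -164) and in Fkbp11, where it lay after the start. The unfolded protein response core TGACGTGG (0.676% of promoters), the composite site GGAANNGAAA that Irf4 binds together with an Ets factor (2.72%) and GAAANNGAAA (3.44%) were found in none of the 7 genes. The CCAAT box, which overlaps the ERSE and stood in 37.4% of promoters, was found in Derl3, Sdc1, Prdm1 and Fkbp11. A match describes letters in a window and not a bound site.

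Signals are given in intensity units after quantile normalization over the 3 arrays, and every fold is a ratio of such signals on a single probe. Signals of different probes cannot be set against each other. Each comparison was 1 array against 1 array, so there was no replicate and no test, and the results describe these 3 arrays. The error given with a log2 ratio is the scanner software's own error of the spots, which leaves out all differences between mice. A ratio was read against all probes that were well above background on at least 1 of both arrays compared, and the Z-score divides a log2 ratio by its standard deviation among the 1000 probes nearest in signal. The limits follow the study's methods. A gene was counted as higher at a ratio of at least 1.5 and as lower at a ratio of at most 0.66, and by the stricter limit with a Z-score of at least 2 in addition. In bulk tissue, fewer cells of a type and less RNA per cell cannot be told apart.

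The arrays were of similar quality, with 50.4% to 54.4% of 55679 probes well above background. Of the genes fixed as spleen markers, 4 had a detected probe and all 4 were well above background on every array, among them Tlx1, the transcription factor needed to form the spleen, at 520.0, 464.5 and 389.8 in Samples 1, 2 and 3. The spike-in RNAs added at labelling stood lower on the array of Sample 3, at 65.6% of their Sample 1 signal over 8 spike-ins. Scaling to them would move the median log2 ratio of all probes from -0.03 to 0.36 for Sample 3 over Sample 1 and from -0.04 to 0.40 for Sample 3 over Sample 2. Ratios below are from quantile normalization and are relative to the bulk of the probes. A printed log2 ratio below 0 for Sample 3, of a brightest probe or a list median, is marked where that scaling turned it. Second probes and signals given without a log2 ratio are not marked.

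In Sample 3, at day 139, 7 of the 8 genes had higher signals than in Sample 1 and all 8 had higher signals than in Sample 2. The ratio reached 1.5 for 7 genes over Sample 1, against 12.4% of all probes (14.5% of probes were lower), and for all 8 over Sample 2, against 11.9% of all probes (14.1% were lower). With the Z-score added, 5 genes counted as higher in each of the comparisons, against 2.66% and 2.65% of all probes. The median log2 ratio of the 8 genes was 1.40 over Sample 1 and 1.44 over Sample 2, and these comparisons share Sample 3. Among the 7 genes well above background on every array, 6 and 7 were higher, with medians of 1.26 and 1.42. With spike-in scaling 30.4% of probes were higher and 7.36% lower than in Sample 1, and 34% were higher and 5.69% lower than in Sample 2, and the genes' medians then stood 1.43 and 1.49 above those of all probes. From day 0 to day 2 none of the 7 genes with a ratio was higher by 1.5-fold (9.97% of all probes were, and 1.86% with the Z-score), and 1, Xbp1, was lower (10.3% of all probes), with a median log2 ratio of -0.12.

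**Figure D1:**
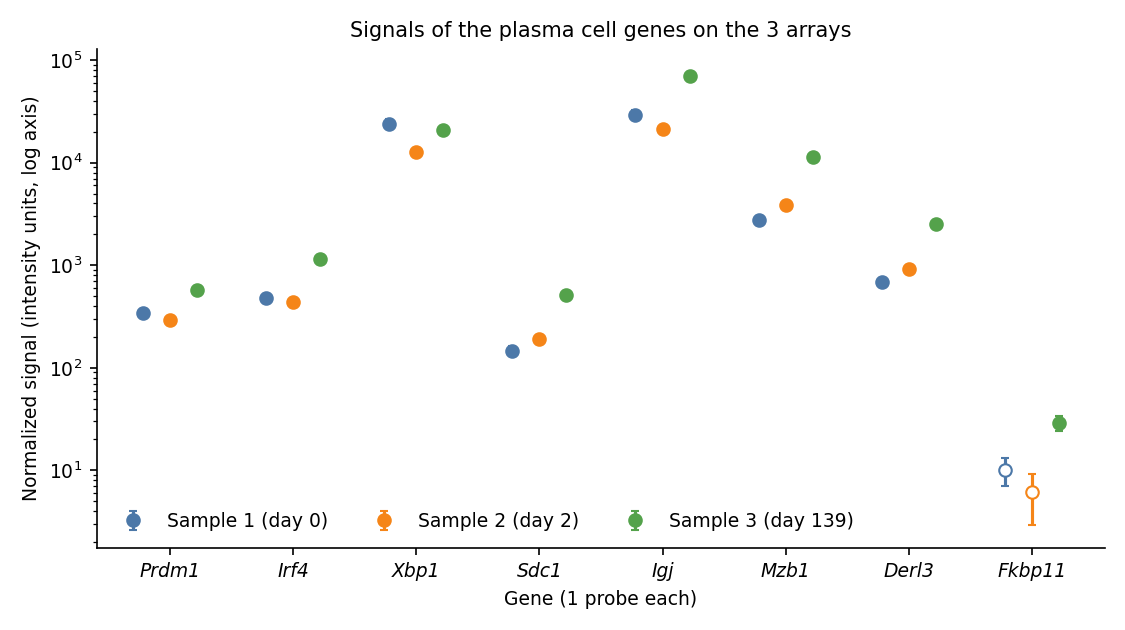
Normalized signals (intensity units, log axis) of the 8 genes on the 3 arrays, 1 point per array, with the scanner software's error as bars where it is wider than the point and open points for signals not well above background. Sample 3 is the highest of the 3 arrays for every gene except Xbp1, and heights of different genes are not comparable.

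The transcription factor Irf4, whose probe lies at chr13:30858532-30858591 (mm9, + strand), had signals of 474.8 at day 0, 435.7 at day 2 and 1139 at day 139. The 2 early samples lay close together and Sample 3 stood above both. Its log2 ratio of Sample 3 was 1.26 ± 0.20 (scanner error, 1 array each) over Sample 1, or 2.40-fold (Z-score 2.15), and 1.39 over Sample 2, or 2.61-fold (Z-score 2.13). Between days 0 and 2 its log2 ratio was -0.12, less than its scanner error of 0.20.

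Prdm1, the repressor that shuts down the B cell program, differed in the same direction by less. Its probe (chr10:44157089-44157148, - strand) gave 341.3, 290.4 and 575.3 in Samples 1, 2 and 3. Sample 3 was 1.69-fold above Sample 1, a log2 ratio of 0.75 ± 0.20, and 1.98-fold above Sample 2, a log2 ratio of 0.99 ± 0.21. Its Z-scores of 1.20 and 1.64 stayed below 2, so Prdm1 counted as higher by ratio alone. The log2 ratio of Sample 2 over Sample 1 was -0.23 with an error of 0.21.

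Xbp1 (chr11:5425816-5425875, + strand) was the exception among the 8 genes. Its signals were 24082.5, 12674.7 and 20686.0 in Samples 1, 2 and 3, lowest at day 2. Sample 2 was at 0.526 of Sample 1, a log2 ratio of -0.93 ± 0.20 with a Z-score of -2.02, which made Xbp1 the only one of the genes to pass the stricter limit between days 0 and 2. Sample 3 was 1.63-fold above Sample 2 (log2 ratio 0.71, Z-score 1.39). Over Sample 1 its log2 ratio was -0.22 ± 0.20, about the size of the scanner error, and with spike-in scaling it was 0.22. The probe measures total Xbp1 mRNA, and the spliced form that makes the active factor was not told apart from it here.

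The surface marker Sdc1 (chr12:8799383-8799442, + strand) had signals of 147, 190.3 and 508.8, in the order of the samples. Sample 3 was 3.46-fold above Sample 1 (log2 ratio 1.79 ± 0.21, Z-score 3.04) and 2.67-fold above Sample 2 (log2 ratio 1.42 ± 0.21, Z-score 2.18). Sample 2 over Sample 1 gave a log2 ratio of 0.37 ± 0.21, with a Z-score of 0.75.

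The J chain gene Igj (chr5:88949919-88949978, - strand) had signals of 29396.4, 21252.9 and 69806.4 in Samples 1, 2 and 3. It was lowest at day 2, with a log2 ratio to Sample 1 of -0.47 ± 0.20 that did not reach the limit of 0.66-fold. Sample 3 was 2.38-fold above Sample 1 (log2 ratio 1.25, Z-score 2.71) and 3.29-fold above Sample 2 (log2 ratio 1.72, Z-score 3.96). The latter was the highest Z-score of any of the 8 genes in the 3 comparisons. No spot of any of the genes was saturated.

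Mzb1, an ER cochaperone of immunoglobulin heavy chain assembly, was the only one of the genes printed in replicate, with 10 spots on each array (chr18:35807187-35807246, - strand). Its normalized signals were 2767.1, 3859.2 and 11388 in Samples 1, 2 and 3. Sample 3 was 4.12-fold above Sample 1 (log2 ratio 2.04 ± 0.20, Z-score 3.23), the largest ratio of the 8 genes in that comparison, and 2.95-fold above Sample 2 (log2 ratio 1.56, Z-score 2.54). The ratio of Sample 2 to Sample 1 was 1.40 (log2 ratio 0.48, Z-score 1.18). Before normalization the 10 spots ranged from 2699 to 2981.3 on the day 0 array, from 2979.4 to 4424.7 on the day 2 array and from 9719.4 to 10157 on the day 139 array. The Sample 3 spots did not overlap those of the other arrays. Their coefficients of variation were 2.65%, 10.2% and 1.57%, the value of Sample 2 including 1 spot at 2979.4 well below the other 9. These spots share 1 RNA sample and so measure the printing and hybridization, not the mice.

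**Figure D2:**
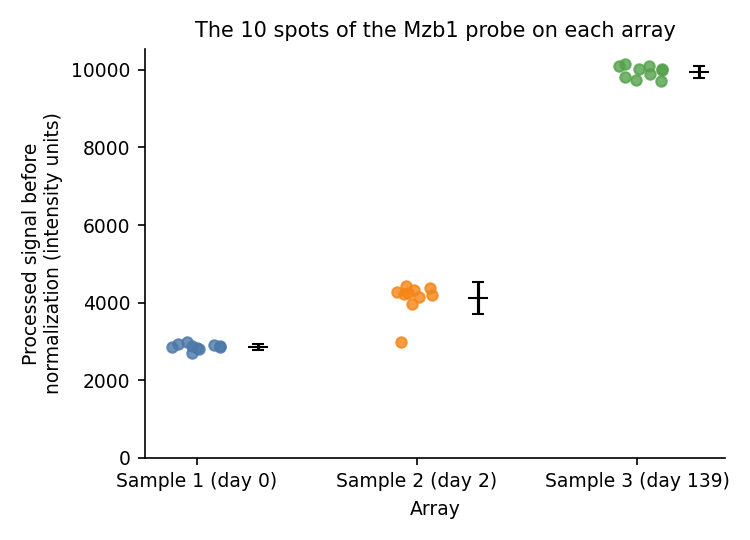
Processed signal of each of the 10 Mzb1 spots on the 3 arrays before normalization (intensity units, linear axis from 0), with the mean and SD over the spots beside the points. The Sample 3 spots lie between 9719.4 and 10157, above all spots of Samples 1 and 2.

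Derl3, a component of ER-associated degradation, had signals of 681.7, 923.9 and 2538.1 in Samples 1, 2 and 3 (chr10:75358503-75358562, + strand). Sample 3 was 3.72-fold above Sample 1, a log2 ratio of 1.90 ± 0.20 with a Z-score of 3.50, the highest of the 8 genes in that comparison. Over Sample 2 the ratio was 2.75 (log2 ratio 1.46, Z-score 2.26). Day 2 stood between the others, with a log2 ratio to day 0 of 0.44 ± 0.20.

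Fkbp11, a prolyl isomerase of the ER, was the gene whose signals lay nearest to background. Its probe (chr15:98554809-98554868, - strand) was not well above background in Samples 1 and 2, at 10.05 and 6.11, and was above it in Sample 3, at 29.23. Against the lowest signal that counted as well above background on each of these arrays, Sample 3 was at least 2.26-fold higher than Sample 1 and at least 2.08-fold higher than Sample 2. The measured log2 ratios were 1.54 ± 0.50 and 2.26 ± 0.79, with Z-scores of 1.27 and 1.60. With the gene held at that lowest signal the median of the 8 genes became 1.26 over Sample 1 and 1.40 over Sample 2. With the normexp background correction its log2 ratios were 0.39 and 0.52, under the limit of 1.5-fold. No ratio between Samples 1 and 2 is given.

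**Figure D3:**
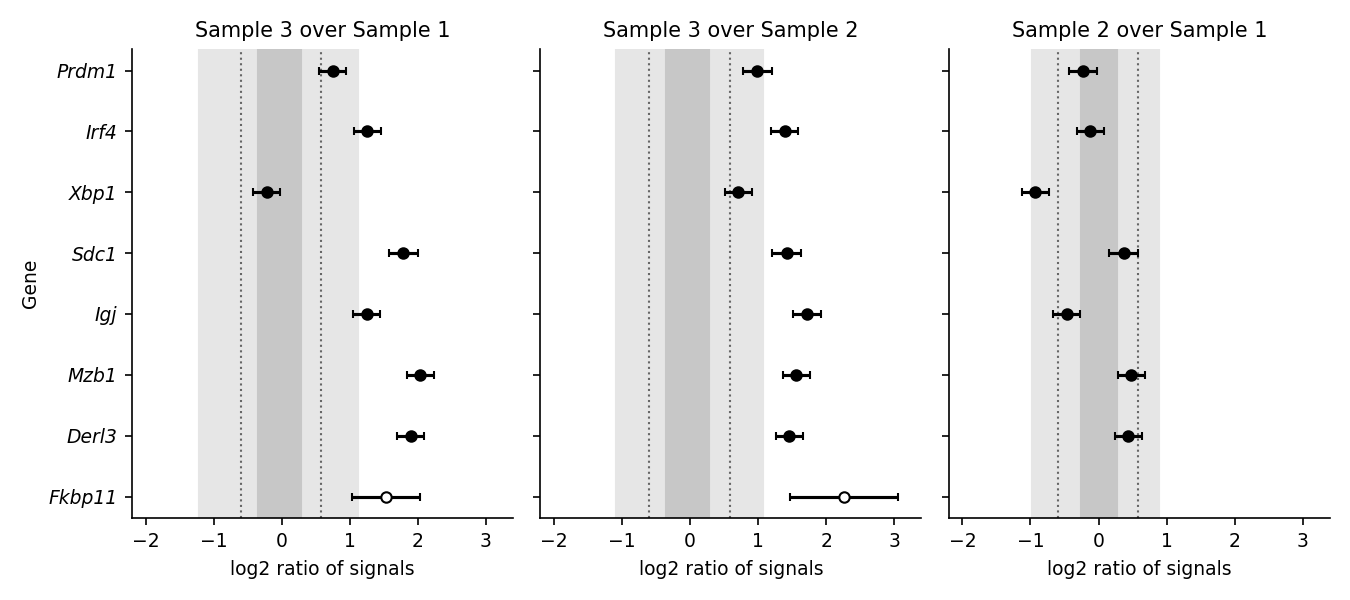
Log2 ratios of the 8 genes in the 3 comparisons, with the scanner software's error as bars and an open point where the signal of the lower sample was not well above background. Dark and light bands hold the middle 50% and 90% of all probes and dotted lines mark ratios of 0.66 and 1.5. Over Sample 1, 6 of the 8 genes lie beyond the light band, and between Samples 2 and 1 none lies above it.

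Between days 0 and 2 the genes differed in sign. Mzb1, Derl3 and Sdc1 were higher at day 2, with log2 ratios from 0.37 to 0.48, and Irf4, Prdm1, Igj and Xbp1 were lower, with log2 ratios from -0.93 to -0.12. The signs held under every processing tried. Xbp1 alone passed a limit.

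The antibody transcripts that a plasma cell secretes were read from 8 probes chosen by their description after the values were seen, since the array's names did not match the symbols listed. All 8 probes, for 6 chains, were at least 1.5-fold higher in Sample 3 than in Sample 1 and than in Sample 2, against 12.4% and 11.9% of all probes. The heavy constant mu probe had signals of 28032.3, 19284.2 and 137816.9 in Samples 1, 2 and 3, a ratio of 4.92 over Sample 1, and the kappa constant probe 82348.5, 61571.6 and 217109.4, a ratio of 2.64. The 2 probes of heavy constant gamma 1 differed in size, with ratios of 2.66 and 17.5 over Sample 1. Gamma 2C was at 16.48, 9.634 and 224.5, the second not well above background. Immunoglobulin constant genes share sequence, so the probes may read more than 1 chain. A probe named Igkc had 55.64, 47.1 and 79.81, or 1.43-fold over Sample 1. Of 2 probes named Pigr, the receptor that carries polymeric antibody across epithelia, the one on chromosome 1, where RefSeq has the gene, was not well above background on any array. The other is placed on chromosome 13 by the array's annotation, so its log2 ratio of -1.22 over Sample 1 is not read as a value of Pigr.

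Further regulators and surface molecules of plasma cells followed less evenly. Of 16 such genes, all detected, 5 were higher and 1 lower in Sample 3 than in Sample 1 (median log2 ratio 0.38), and 7 were higher and 1 lower than in Sample 2 (median 0.48). Among all probes 12.4% were higher and 14.5% lower than in Sample 1, and 11.9% and 14.1% than in Sample 2. With spike-in scaling the numbers were 12 and 0 (median 0.76) and 11 and 0 (median 0.94), beside 30.4% and 34% of all probes higher. Tnfrsf17 (BCMA), the survival receptor of plasma cells, had the largest ratio, at 40.04, 57.58 and 275.5 in Samples 1, 2 and 3, or 6.88-fold over Sample 1 with a Z-score of 3.97. Eaf2, a transcription elongation factor, had 3653.6, 3547.4 and 8281.2, or 2.27-fold over Sample 1, and its second probe gave 4.24-fold. Cd93 had 4735.0, 4757.3 and 2714.9, a log2 ratio of -0.80 over Sample 1 that was -0.40, no longer past the limit, with spike-in scaling. The chemokine receptor Cxcr4, which holds plasma cells in the bone marrow, was at 989.2, 1108.1 and 804.2, a log2 ratio of -0.30 over Sample 1 that turned to 0.11 with spike-in scaling.

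The general machinery of the ER differed by less between the samples. Of 33 chaperones, translocon subunits, degradation factors and sensors of the unfolded protein response, all detected on every array, 7 were higher and 0 lower in Sample 3 than in Sample 1 (median log2 ratio 0.23), and again 7 and 0 against Sample 2 (median 0.22). Among all probes 12.4% were higher and 14.5% lower than in Sample 1, and 11.9% and 14.1% than in Sample 2. Txndc5, a disulfide isomerase, had the largest ratio over Sample 1, with signals of 468.3, 692.2 and 1370.8, or 2.93-fold, and was the only gene of this list with a Z-score of at least 2 there. Txndc11 followed at 1880.9, 2170.5 and 3522.8, or 1.87-fold. The stress factors Atf4 and Ddit3 were at the other end on their brightest probes, with log2 ratios of -0.33 and -0.31 over Sample 1. With spike-in scaling these became 0.10 and 0.09. A second, dimmer Atf4 probe gave -0.67 over Sample 1, past the limit of 0.66-fold. Spike-in scaling raised the number of higher genes of the list from 7 to 17 over Sample 1 and from 7 to 20 over Sample 2. With that scaling 30.4% and 34% of all probes were higher. Between days 0 and 2, 1 gene of the list was lower, against 10.3% of all probes. It was Dnajb9, an ER chaperone, at 690.5 and 425.8 on its brighter probe, a log2 ratio of -0.70. Its second probe, also well above background, gave -0.09. Dnajb9 is named here because of its value.

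Few relatives of the genes in the same protein families were higher in Sample 3. Of 10 other syndecans, derlins and ER prolyl isomerases, 1 was higher and 1 lower than in Sample 1, against 12.4% and 14.5% of all probes. Against Sample 2, 0 were higher and 3 lower, beside 11.9% and 14.1% of all probes. With spike-in scaling 3 were higher and 1 lower than in Sample 1, and 2 and 1 against Sample 2. Sdc2 had 91.04, 182.6 and 178.6 in Samples 1, 2 and 3, and Sdc4 329.6, 161.0 and 134.8, where Sdc1 was highest in Sample 3. The derlins Derl1 and Derl2 had log2 ratios of 0.01 and 0.23 over Sample 1, beside 1.90 for Derl3.

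**Figure D4:**
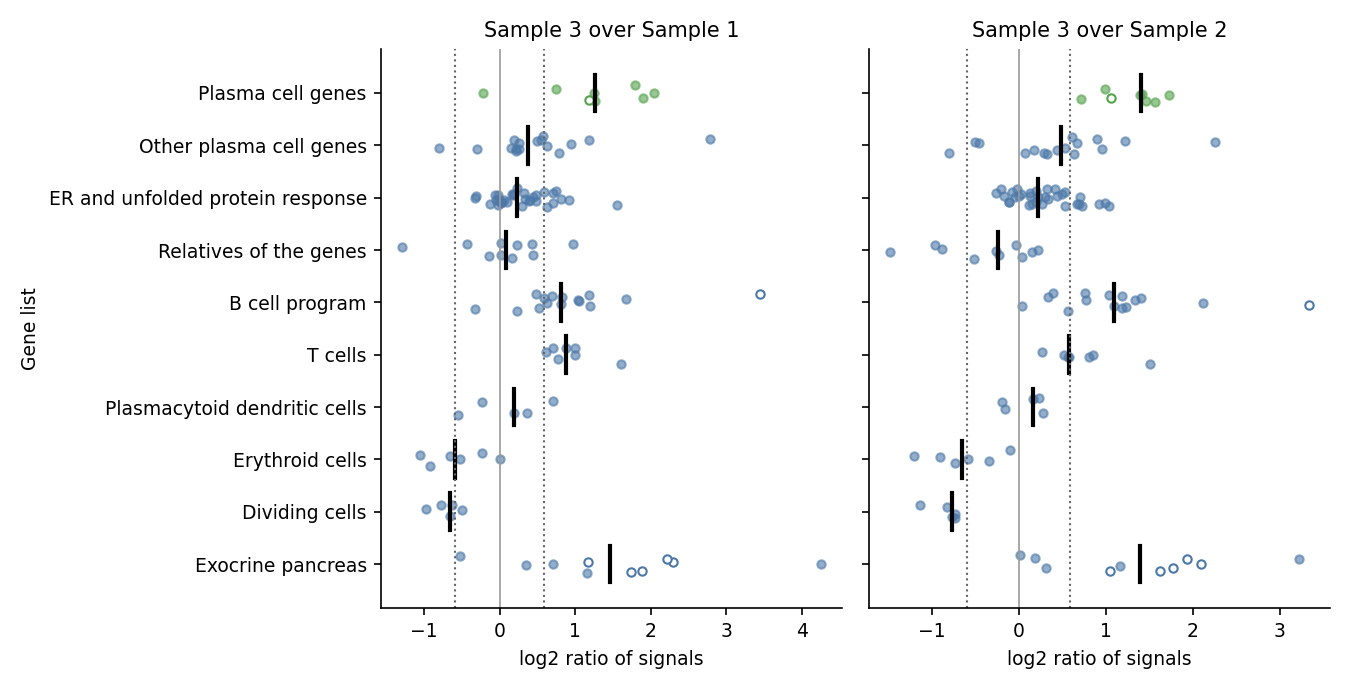
Log2 ratios of Sample 3 over Sample 1 and over Sample 2 for the 8 plasma cell genes and 9 other gene lists, with 1 point per detected gene (its brightest probe), open and at its lower bound where the signal of the lower sample was not well above background, a bar at the median of the points, dotted lines at ratios of 0.66 and 1.5, and a grey line at 0. The bar of the plasma cell genes is at 1.26 and 1.40 with Fkbp11 at its bound, that of the ER list at 0.23 and 0.22 and that of T cells at 0.88 and 0.58.

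Genes of the B cell program, which plasma cells switch off, were higher in Sample 3 along with the plasma cell genes. Of the 14 such genes well above background on every array, 9 were higher and 0 lower than in Sample 1 (median log2 ratio 0.75), and 10 and 0 against Sample 2 (median 1.06). Fcer2a (CD23) had 339.5, 631.4 and 1079.6 in Samples 1, 2 and 3. At the lower end were Cr2, with a log2 ratio of 0.23 over Sample 1 on its brighter probe and 0.83 on the other, and Spi1 at -0.33, which became 0.05 with spike-in scaling. The part of B cell number in the signals of the 8 genes was not tested.

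Among cytokines and niche signals known to act on plasma cells, 7 were detected. Of these, 2 were higher and 2 lower in Sample 3 than in Sample 1 (median log2 ratio -0.04), beside 12.4% and 14.5% of all probes. Against Sample 2 they were 3 and 0 (median 0.31), beside 11.9% and 14.1%. With spike-in scaling the numbers were 3 and 2 (median 0.40) and 4 and 0 (median 0.74). Il21, the T cell cytokine that drives plasma cell formation, was not well above background in Samples 1 and 2 and had 136.8 in Sample 3, at least 10.6-fold higher than Sample 1 and at least 9.75-fold higher than Sample 2. Il6 had 840.7, 50.91 and 40.39, so it was highest right after transplantation, with a log2 ratio of -4.38 for Sample 3 over Sample 1.

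Markers of other cells that use these genes also differed between the samples. Among all probes 12.4% were higher and 14.5% lower than in Sample 1, and 11.9% and 14.1% than in Sample 2. On their brightest probes all 7 T cell markers were at least 1.5-fold higher in Sample 3 than in Sample 1, and 3 of 7 against Sample 2. When the arrays were scaled to their 75th percentile, 6 were higher than in Sample 1. A second, dimmer Cd8a probe gave 1.33-fold over Sample 1, under the limit. The markers had median log2 ratios of 0.88 and 0.58 and summed signals of 7322.4, 9391.7 and 13389.3 in Samples 1, 2 and 3. Cd247 had 32.32, 34.25 and 97.82 on its brighter probe (log2 ratio 1.60 over Sample 1) and -0.04 on the other, and Trat1 had 51.48, 43.51 and 78.51. Of 12 exocrine pancreas genes, 5 were well above background at day 0, 5 at day 2 and 10 at day 139. Of the 5 genes above it on every array, 3 were higher and 0 lower at day 139 than at day 0, and 2 and 0 against day 2. The 5 genes above it only at day 139 were at least 2.24-fold to at least 4.92-fold higher than at day 0. Amylase Amy2a5 had 21.28, 43.41 and 404.2, while Cela1 had 870.4, 598.7 and 603.1. The summed signals of the 10 genes were 1093.3, 897.7 and 1544.7. Of 5 epithelial genes, 4 were higher and 1 lower in Sample 3 than in Sample 1 (median log2 ratio 1.63), but 1 higher and 3 lower against Sample 2 (median -0.66, or -0.20 with 2 higher and 0 lower after spike-in scaling). Krt19 had 20.62, 170.4 and 485.9. Cdh1 was at 80.74 and 37.21 in Samples 1 and 2 and at 20.74, not clear of background, in Sample 3. The part of T cells, exocrine tissue and epithelium in the signals of the 8 genes was not tested.

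Islet genes took another course. All 11 were at or below 0.66-fold in Sample 3 against Sample 2, and their summed signals were 63897.2, 109018 and 33414.4 in Samples 1, 2 and 3, highest where Xbp1 was lowest. Gcg had 880.6, 2586.5 and 308.3. Ttr had 509.4 and 68.73 at days 2 and 139, and its day 0 spot was not clear of background. Plasmacytoid dendritic cell markers, of a cell type that resembles plasma cells in its secretory ER, had a median of 0.19 (log2 ratio of Sample 3 over Sample 1), with 1 of 5 higher (Pacsin1, 7124.5, 9570.8 and 11660.8) and Klk1 lowest at -0.55. Genes of dividing cells, as plasmablasts are, were lower in Sample 3, 4 of 5 against Sample 1 and all 5 against Sample 2, with median log2 ratios of -0.66 and -0.77. Whether plasmablasts or other dividing cells gave these signals was not tested. Mki67 had 30689.6, 27727.9 and 15555.5, and Ccnb1 2956.8, 3492.1 and 2095.5. With spike-in scaling the numbers lower were 0 and 1 and the medians -0.25 and -0.34. Erythroid genes, expressed in mouse spleen where red cells also form, had a median of -0.59 over Sample 1, from 0.00 for Hbb-b1 to -1.06 for Klf1, with 3 of 6 lower. With spike-in scaling the median was -0.18, 1 of 6 was lower and Hbb-b1 was at 0.58. The median was -0.25, or 0.13 with spike-in scaling, for macrophage genes (Emr1 0.65, Hmox1 -1.08) and 0.07 for neutrophil genes (Elane 0.44, S100a8 -1.80).

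The pattern of the 8 genes was set against all other probes that were well above background on the 3 arrays, had a mean signal of at least 100 and lay outside the lists. Where a name had more than 1 such probe, only the one nearest in pattern was kept, which left 14924. Likeness was the distance of a probe's log2 ratios of Sample 2 and of Sample 3 over Sample 1 from the medians of the 8 genes, -0.18 (with Fkbp11 at its measured value) and 1.40. Within a distance of 0.1 there were 7 of these. The 5 nearest were a lincRNA region on chromosome 1 (0.04), the immunoglobulin lambda constant 3 probe (0.04, signals 40066.5, 35934.5 and 103226.9), the secreted phospholipase Pla2g2d (0.05, signals 713.3, 631.5 and 1951.6), the expressed sequence AI324046 (0.06) and a probe without a gene name (0.08). With 3 samples a pattern is 2 numbers.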

How the data were processed

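Cy3-labelled spleen RNA of 3 samples was hybridized to Agilent SurePrint G3 Mouse 8x60K arrays annotated on mm9. Per the file headers Feature Extraction 10.7.1.1 made the deposited intensity values (background-subtracted processed signals), while the labels and methods name version 9.5.1.1. The authors' value table holds quantile-normalized intensity of the same arrays and was used as an alternative. The labels name TRIzol and a low input labelling kit, and the paper another RNA kit. Exon or UTR positions of the probes were not analysed here.

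From the 59305 non-control spots per array, outlier-flagged spots (119 to 152) were left out, spots of a probe were averaged and 55679 probes were quantile normalized, floored at 1 and put on the log2 scale (Python 3.11.15, pandas 2.3.3; normexp alternative in limma 3.58.1). Of these, 32108 probes were well above background on at least 1 array; a probe dim on both arrays of a comparison was given no ratio. The Z-score script was tested on simulated data. A "fold at least" sets the bright signal against the higher of the dim probe and the lowest signal well above background (12.94, 14.03 and 19.27 on the 3 arrays). The number of arrays limits the precision, and spots of replicated probes above a signal of 500 had SDs of 0.046 to 0.063 on the log2 scale.

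The 8 genes and the other gene lists were chosen with earlier results of these data known. Genes named are the 8; in each other list those with the largest and smallest ratio of Sample 3 over Sample 1 on the brightest probe, with the next on each side in the lists of other plasma cell genes, the ER, the B cell program and immunoglobulin constant genes; and the 5 probes nearest in pattern. A gene that this rule names is not reported here. Dnajb9, Cd8a, Derl1, Derl2 and the immunoglobulin probes read by description were added after their values were seen. Of 165 genes in the other lists, 17 had no probe by name, 15 of them immunoglobulin constant genes. Alternatives were background correction, scaling, floor, filter, outlier spots, probe choice, fold limit and the spread behind the Z-score.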

Additional observations from a re-analysis of the deposited data

How the results depend on the processing

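Every comparison was 1 array against 1 array, so no replicate could be left out and no error between mice exists. No paired analysis was possible because each group holds 1 sample. Each gene has 1 probe, so no other probe could replace it. Of the counts and medians recomputed under the alternatives, 116 stayed close to the reported value and 7 did not. Of the single-gene ratios, 164 stayed close and 18 did not, and none of the called ratios changed sign. These tallies overstate robustness, because some alternatives could hardly change a value. A median over detected probes changes nothing for genes with 1 probe. The authors' values are quantile-normalized intensity of the same arrays. Small changes in a count were also taken as close. With normexp, 6 genes in place of 7 were higher by ratio over Sample 1, and 7 in place of 8 over Sample 2. The median log2 ratio of Sample 3 over Sample 1 was 1.19 with normexp background correction and 1.79 with spike-in scaling, and that over Sample 2 was 1.89 with spike-in scaling. The genes higher by ratio and Z-score numbered 3 over Sample 1 and 2 over Sample 2, in place of 5 and 5, when 1 SD over all probes replaced the SD of probes of like signal. The genes at or below 0.66-fold between days 0 and 2 numbered 2 without the detection filter, which adds Fkbp11, and 0 at a 2-fold limit, in place of 1. With normexp, 5.88% of all probes were higher and 5.48% lower in Sample 3 than in Sample 1, and at the 2-fold limit 5.89% and 6.81%. For Sdc1, Irf4, Mzb1, Derl3 and Igj, the log2 ratio of Sample 3 over Sample 1 stayed above 1.15 under every alternative, its lowest value being 1.16, for Irf4. Signal over background limits Fkbp11.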
